A study of Mus musculus with 12 samples.

Results

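The comparison described here asked how splenic B cells of the genotype Foxp1flox/del differed from B cells of the genotype Foxp1wt/flox once both had been stimulated with IgM. It set 6 of the 12 arrays of the study against each other, 3 per genotype, while the spread was estimated from all 12. The 6 were chosen by their titles alone, with the replicate number as the pairing. In these names flox marks the conditional allele and del the recombined one, so cells called deleted here carried 1 flox and 1 deleted allele, and cells called control carried 1 wild-type and 1 flox allele. All mice had a mixed 129/Sv-C57BL/6 background. B cells were sorted from spleen on B220, a surface protein of most B cells, and were incubated for 4 h. The other 6 arrays held the same genotypes after 4 h with no IgM added. The labels give neither the age of the mice nor a Cre recombinase or its promoter, and they call the stimulus IgM without naming a reagent. They do not say whether replicates came from separate animals, so p-values measure the spread between these samples only. That spread may be technical in part, although sex-linked RNAs, given below, differed between the replicate numbers.

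Foxp1 is a forkhead transcription factor that acts mainly as a repressor and is needed for B cell development in the bone marrow. In mature B cells it has been studied for its part in survival. Crosslinking of surface IgM starts the B cell receptor cascade, in which Src and Syk family kinases activate phospholipase C gamma, calcium release and the Ras, NF-kB and phosphoinositide 3-kinase pathways. Immediate early genes such as Egr1, Fos and Nr4a1 follow, and then chemokine and survival genes.

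Values are GCRMA log2 levels, so a difference of 1 is a doubling, and the lowest value on the arrays was 2.23. Levels close to this floor have no order among themselves, and a rise from the floor has no exact size. A gene is said to have risen or fallen in deleted cells where its limma adjusted p (Benjamini-Hochberg over 9293 tested genes) was under 0.05 in a fit of all 12 arrays with the replicate number as a block. Differences are deleted minus control, with the SE of that fit and 3 arrays per group.

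An array stood apart. Deleted IgM replicate 3 had a mean log2 level of 6.94 over 24 probe sets for spiked-in poly-A control RNAs, against 8.05 to 10.73 elsewhere, and its correlations with its group mates were 0.817 and 0.865. Every other pair of arrays within a group correlated at 0.951 or more. The difference between this array and control IgM replicate 3 followed the genomic span of the genes. Of 5 classes equal in number, its median was -0.99 in the class of the shortest genes, with a median span of 4416 bp, and 0.77 in that of the longest, with a median span of 103204 bp. Over the same classes the medians ran from -0.04 to 0.15 in replicate 1 and from -0.01 to 0.05 in replicate 2. All fits were therefore repeated without it. Values from that fit stand beside the leading genes of each group and wherever a call changed or a called difference moved by over 1.5 times. The sex-linked RNA Xist lay at 2.23 to 2.44 on all 4 arrays of replicate 1. It lay at 7.67 to 11.75 on the arrays of replicates 2 and 3, so replicate 1 stood apart in both genotypes. Within replicate 3 Xist ran from 7.67 to 11.52, and whether that spread followed the genotype was not tested. Y-linked Eif2s3y was far above the floor in every replicate number, its lowest reading being 7.97, in replicate 2. Replicates 2 and 3 thus held both Xist and Eif2s3y RNA. Y-linked Uty lay at 2.97 to 4.33 in replicate 2, at 5.97 to 6.62 in replicate 1 and at 5.40 to 6.93 in replicate 3.

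**Figure D1:**
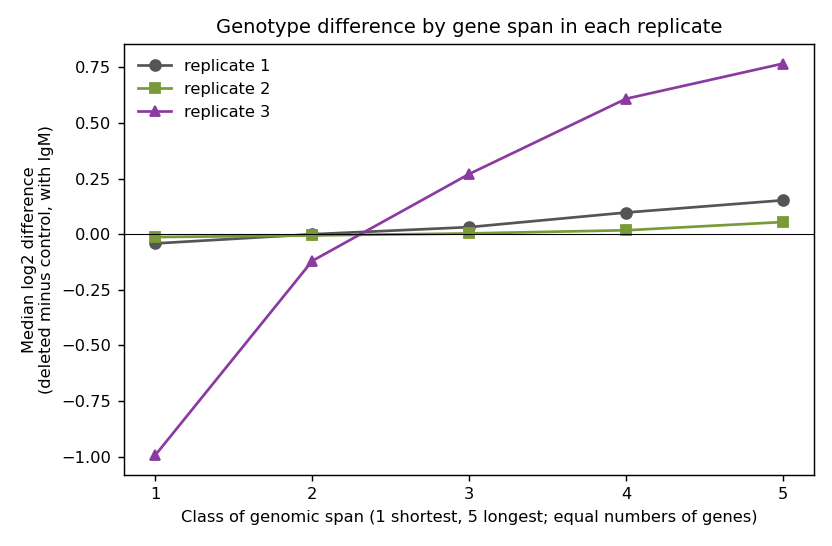
Median log2 difference between deleted and control cells with IgM (vertical axis) in 5 classes of genes ordered by genomic span (horizontal axis), drawn separately for the same-numbered arrays of replicates 1, 2 and 3. Replicate 3 runs from -0.99 in the shortest class to 0.77 in the longest, whereas replicates 1 and 2 stay between -0.04 and 0.15.

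The sorted cells carried the RNAs of B cells. All 20 genes of a B cell identity list that are on the array lay above 4 on all 6 IgM arrays, and the list's mean log2 level was 10.35 to 10.58 on control arrays and 10.58 to 10.77 on deleted arrays. Foxp1 itself, which lies at chr6:98925342-99522746 (GRCm38.p6), was read by 8 probe sets. The brightest read 12.08, 12.91 and 13.06 on control replicates 1, 2 and 3 and 12.14, 12.74 and 13.06 on the deleted replicates. The groups overlapped, and the values of replicate 1 were the lowest in both genotypes. Over the 8 probe sets the differences ranged from -0.30 to 0.32, and 0 passed the threshold. These 8 were tested in a limma fit of all 34945 single-gene probe sets, dim ones included, and adjusted over those. There 2 of the 8 reached an unadjusted p under 0.05. The smaller was 0.0041 (difference -0.25, limma adjusted p = 0.147, and 0.061 without deleted IgM replicate 3). In a fit of only the probe sets above log2 4 on at least 3 arrays, the same difference had an SE of 0.14 and a limma adjusted p of 0.266. The sources used here do not give which exons del removes, so a probe set that reads retained exons cannot test the genotype, and none of the 8 could be placed in this respect.

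With IgM, 628 of the 9293 genes (6.76%) differed between the genotypes, 526 higher in deleted cells (5.66%) and 102 lower (1.1%). In all 628 the difference had the same sign in each of the 3 same-numbered pairs, and in 527 the groups did not overlap. The fit that chose these genes favours both features, so neither is separate evidence. Groups did not overlap in 1660 of all tested genes (17.9%), 1144 of them higher (12.3%) and 516 lower (5.55%). The rises had a median of 1.28 and the falls of -1.14. Without deleted IgM replicate 3, 1223 genes passed (13.2%), 904 higher (9.73%) and 319 lower (3.43%), with smaller medians of 0.83 and -0.63. List counts given below for either fit are to be read beside the shares of that fit over all genes. The 589 genes that passed both ways in the same direction (6.34%) comprised 490 rises (5.27%) and 99 falls (1.07%), and 0 passed in opposite directions. Without the replicate block only 160 genes passed (1.72%), 148 higher (1.59%) and 12 lower (0.129%), all of them among the 628. The calls also drew on the unstimulated arrays. A limma fit to the 6 IgM arrays alone called 0 genes higher and 0 lower, while 879 and 305 had an unadjusted p under 0.05. The same fit without deleted IgM replicate 3 called 182 higher and 43 lower. Quantile normalization of the tested genes shifted the split to 343 higher and 130 lower. Single arrays also set the counts. The numbers higher and lower were 152 and 16 without control IgM replicate 1, 266 and 32 without control IgM replicate 2, and 169 and 21 without control IgM replicate 3. They were 340 and 56 without unstimulated deleted replicate 2, 337 and 55 without unstimulated control replicate 1, and 348 and 64 without unstimulated control replicate 2. A set of 155 genes, chosen by rule or after their values were seen, was followed through the other fits. It does not hold every gene named in the text. Of its 111 genes that passed, 46 also passed without the replicate block, 40 with any 1 of the 12 arrays left out, and 28 in both respects. These 28 were Cd93, Ciita, Csf1r, Ctla4, Dntt, Dusp14, F13a1, Ifit1bl1, Igf2bp3, Irak3, Itga4, Klhl14, Lcp2, Map2k6, Mpzl2, Mturn, Neil1, Pecam1, Plb1, Pls1, Pmp22, Pygl, Qpct, Rgs18, Rtl5, Slpi, Spn and Vcam1. In bulk RNA, fewer cells of a type and less RNA per cell cannot be told apart.

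The largest rises were of genes at or near the floor in control cells. Mpzl2, at chr9:45042344-45054043, encodes an immunoglobulin-like adhesion protein, and its probe set is of a kind (x_at) whose probes can match other transcripts. It lay at the floor of 2.23 on all 3 control arrays and at 6.43, 7.53 and 9.01 on deleted replicates 1, 2 and 3. That difference was 5.42 ± 0.42 (SE; limma adjusted p = 0.000411), and 5.07 without deleted IgM replicate 3. Plb1, a phospholipase gene, read 2.79, 2.79 and 2.70 in control cells and 6.59, 6.65 and 8.53 in deleted cells, a difference of 4.49 ± 0.39, or 3.88 without that array. The retrotransposon-derived gene Rtl5 read 2.34, 2.81 and 2.93 against 6.08, 5.75 and 8.90, a difference of 4.22 ± 0.51, or 3.47 without it. In these 3 genes the outlying array was the highest, and the other deleted arrays also lay well above every control array. Of the 526 rises, 102 had a control mean under 4, where sizes are not exact.

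Genes with a control mean above 4 rose as well. Ifit1bl1, of the interferon-induced Ifit family, read 7.86, 7.52 and 6.98 in control cells and 10.99, 11.78 and 11.82 in deleted cells, a difference of 4.08 ± 0.30 (SE; limma adjusted p = 0.000411). It was the only 1 of 22 measured interferon-induced genes to rise, a share near the 5.66% of all genes, and 0 fell. The median of that list was 0.16, or 0.24 without deleted IgM replicate 3. Neil1 encodes a glycosylase of base excision repair and read 7.58, 6.74 and 6.99 against 10.34, 10.28 and 10.81, a difference of 3.37 ± 0.22. Slpi, a secreted inhibitor of serine proteases, read 7.36, 6.99 and 7.28 against 11.88, 10.22 and 9.62, a difference of 3.36 ± 0.46. Pls1, which bundles actin filaments, read 4.30, 4.30 and 4.08 against 7.76, 7.53 and 8.96, a difference of 3.85 ± 0.30. None of these 4 showed overlap between the genotypes, and without deleted IgM replicate 3 their differences were 3.90, 3.22, 3.94 and 3.39. Pecam1 (3.94 ± 0.31) and Cd34 (3.64 ± 0.60) code for surface glycoproteins of endothelium, leukocytes and progenitors. Csf1r (3.99 ± 0.45), F13a1 (3.95 ± 0.45) and Mpo (3.36 ± 0.44) are best known from myeloid cells and are described with the myeloid genes. The control means of Cd34, Csf1r and F13a1 were 3.49, 3.94 and 3.22, thus under 4, so the sizes of these 3 rises are not exact. Of the 12 largest rises, 11 passed with any 1 of the 12 arrays left out, and Cd34 had an adjusted p of 0.0581 without control IgM replicate 1. Mpo alone of the 12 missed the threshold without the replicate block, with an adjusted p of 0.0552.

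**Figure D2:**
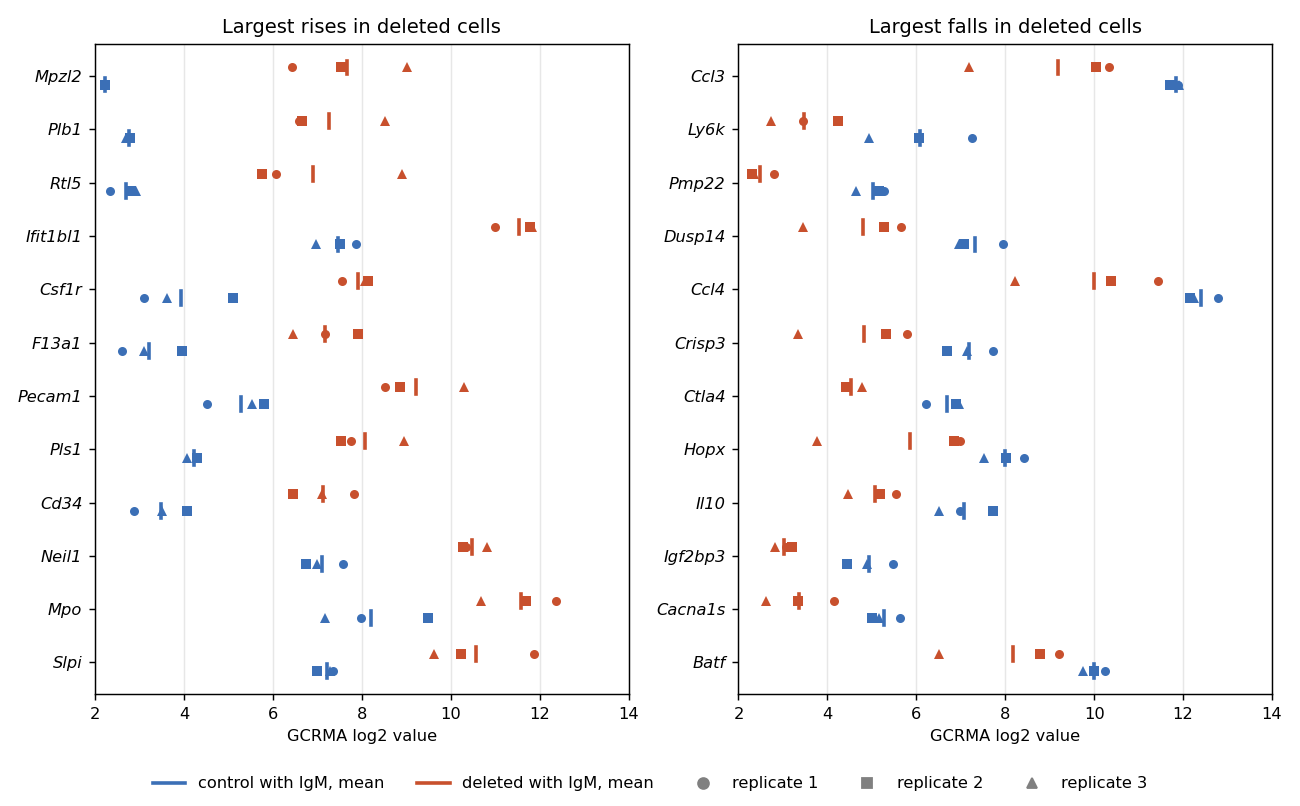
GCRMA log2 values (horizontal axis) of the 12 largest rises (left) and the 12 largest falls (right) in deleted cells with IgM that passed with and without deleted IgM replicate 3. Points are arrays, with the replicate number as the shape, and vertical bars are group means of 3 arrays. In Ccl3, Ccl4 and Batf the triangle of deleted replicate 3 lies well below the other deleted arrays, which in turn lie below all control arrays.

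The falls included chemokines, a cytokine and genes of the T cell activation and AP-1 systems. Ccl3 and Ccl4 encode chemokines that activated B cells release to attract T cells. Their listed spans, chr11:83647843-83649378 and chr11:83648624-83664683, overlap. Ccl3 read 11.89, 11.72 and 11.90 in control cells and 10.32, 10.05 and 7.19 in deleted cells, a difference of -2.65 ± 0.59 (SE; limma adjusted p = 0.0326). The outlying array carried much of this fall, which was -1.69 without it (adjusted p = 0.0046). Ccl4 read 12.79, 12.15 and 12.24 against 11.43, 10.37 and 8.21, a difference of -2.39 ± 0.49, or -1.60 without that array. Neither chemokine passed without the replicate block, with adjusted p of 0.0729 and 0.0883. Leaving out any 1 of the control IgM arrays also ended both calls, as did leaving out 1 of 3 unstimulated arrays for Ccl3, with adjusted p of up to 0.164 for Ccl3 and 0.126 for Ccl4.

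All 12 of the largest falls passed without deleted IgM replicate 3, as the rule that chose them requires. Ctla4, Pmp22, Igf2bp3 and Dusp14 also passed with any 1 of the other arrays left out and without the block. Ctla4, an inhibitory receptor that binds CD80 and CD86, read 6.21, 6.89 and 6.95 in control cells and 4.39, 4.42 and 4.77 in deleted cells, a difference of -2.16 ± 0.17 (SE; limma adjusted p = 0.000411). Pmp22, a membrane protein known from myelin, read 5.27, 5.17 and 4.64 against 2.81, 2.30 and 2.36, a difference of -2.53 ± 0.22, so that deleted cells lay near the floor. The RNA-binding protein gene Igf2bp3 read 5.48, 4.45 and 4.89 against 3.07, 3.21 and 2.82, a difference of -1.91 ± 0.24. All 3 genes had separate groups, and without the outlying array they differed by -2.14, -2.58 and -1.82. Dusp14, a phosphatase of MAP kinases, read 7.95, 7.07 and 6.96 against 5.64, 5.28 and 3.46, a difference of -2.53 ± 0.35 and of -2.02 without the outlying array. Il10, the gene of an anti-inflammatory cytokine, fell from 6.97, 7.72 and 6.51 to 5.53, 5.18 and 4.47, a difference of -2.01 ± 0.40, or -1.78 without the outlying array. Its adjusted p was 0.02 and reached 0.0904 when single arrays were left out. Batf, an AP-1 factor that acts in class switching, read 10.24, 9.99 and 9.75 against 9.22, 8.78 and 6.52, a difference of -1.82 ± 0.44. Without the outlying array it was -1.10 (adjusted p = 0.000768), and without the block its adjusted p was 0.145. The other large falls were Ly6k (-2.61 ± 0.51), Crisp3 (-2.37 ± 0.49), the homeodomain gene Hopx (-2.12 ± 0.50) and the calcium channel gene Cacna1s (-1.90 ± 0.32). Without the outlying array these were -2.47, -1.63, -1.29 and -1.53, so Hopx moved by over 1.5 times. Among these 4, only Crisp3 passed without the block, at an adjusted p of 0.0499.

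Several genes of the early B cell receptor response fell in deleted cells. Of 32 measured, 7 fell and 0 rose, against backgrounds of 1.1% falls and 5.66% rises over all genes. The list had a median of -0.48, against 0.08 over all genes, and of -0.41 without deleted IgM replicate 3, when 11 fell and 2 rose. Besides Dusp14 these were Spry1, Nr4a2, Crem, Fos, Junb and Dusp4. Nr4a2, an orphan nuclear receptor, read 11.60, 11.75 and 12.10 in control cells and 10.32, 10.29 and 10.40 in deleted cells, a difference of -1.48 ± 0.28 (SE; limma adjusted p = 0.0174). Fos read 9.47, 9.93 and 9.59 against 8.42, 8.99 and 8.34, a difference of -1.08 ± 0.15. Its AP-1 partner Junb read 10.40, 10.41 and 9.79 against 9.62, 9.59 and 8.53, a difference of -0.95 ± 0.18. In Nr4a2, Fos and Junb every deleted array lay below every control array, and without the outlying array they differed by -1.45, -1.01 and -0.75. Crem, a cAMP response factor, differed by -1.17 ± 0.24 and the ERK phosphatase Dusp4 by -0.87 ± 0.20. Of the 7 falls, 1 passed without the replicate block, and 2, 4 and 3 passed without control IgM replicate 1, 2 and 3.

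Further immediate early genes were chosen after their values were seen. Egr1 read 12.14, 12.66 and 12.88 in control cells and 12.15, 12.47 and 12.91 in deleted cells (difference -0.05, limma adjusted p = 0.9). The differences of Egr2 and Egr3 were 0.11 and 0.32 (adjusted p = 0.731 and 0.299), and that of Myc was -0.34 (adjusted p = 0.218). These 4 transcription factor genes did not pass with or without deleted IgM replicate 3. Nr4a1 (-0.53, adjusted p = 0.109), Nr4a3 (-0.85, adjusted p = 0.0905) and Fosl2 (-0.92, adjusted p = 0.0996) missed the threshold with all arrays. They passed without the outlying array, at -0.68, -1.12 and -1.26. Fosl1 fell by 1.68 ± 0.37 and Gadd45b, a stress-response gene, fell by 1.60 ± 0.38. Without the outlying array Gadd45b differed by -1.01, a move of over 1.5 times, and Fosl1 by -1.15.

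Of 20 NF-kB subunits and targets, Ccl3 and Ccl4 fell and 0 rose, against 1.1% and 5.66% of all genes, and the median was -0.27. Without deleted IgM replicate 3, 4 fell. Neither call held without the replicate block or without any 1 of the control IgM arrays. Of 17 cytokine and chemokine genes, 3 fell (Ccl3, Ccl4 and Il10) and 2 rose. Tnfsf4, which encodes the costimulatory ligand OX40L, read 5.39, 5.31 and 4.95 in control cells and 7.20, 7.37 and 6.78 in deleted cells, a difference of 1.90 ± 0.29 (SE; limma adjusted p = 0.0075). Il16, a chemoattractant for CD4+ cells, rose by 1.09 ± 0.17. Both rises passed without control IgM replicate 1, which did not hold for the 3 falls. Il16 missed the threshold without control IgM replicate 3 (limma adjusted p = 0.0529). Without the replicate block Tnfsf4 did not pass, whereas Il16 and the fall of Il10 did.

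Survival genes of the Bcl2 family were examined because Foxp1 has been linked to B cell survival. Bcl2l1, at chr2:152758732-152833803, encodes the anti-apoptotic protein Bcl-xL. It read 10.47, 9.45 and 9.38 in control cells and 9.50, 8.58 and 8.25 in deleted cells, a difference of -0.99 ± 0.17 (SE; limma adjusted p = 0.0103), and of -0.90 without deleted IgM replicate 3. Replicate 1 was the highest in both genotypes, so the groups overlapped although each deleted array lay below its same-numbered control. The adjusted p was 0.307 without the replicate block and 0.069 at most when single arrays were left out, in this case a control IgM array of replicate 1 or 3. The kinase gene Pim3, which acts against apoptosis, differed by -0.56 ± 0.14 (adjusted p = 0.0428), and passed in 1 of the 12 fits that leave out 1 array. These were the 2 falls among 11 measured anti-apoptotic genes, of which 0 rose and whose median was 0.29 (0.05 without the outlying array). Over all genes 1.1% fell and 5.66% rose. Neither fall passed without the block. Bcl2 itself (0.29, adjusted p = 0.211) and Mcl1 (0.16, adjusted p = 0.422) did not pass, and their deleted arrays lay 0.06 to 0.38 above the same-numbered control arrays.

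Bcl2l11 codes for the pro-apoptotic protein Bim and read 12.38, 12.26 and 12.13 in control cells and 12.32, 12.15 and 12.15 in deleted cells, a difference of -0.05 ± 0.14 (limma adjusted p = 0.81). Its difference without IgM was -0.92 (adjusted p = 0.0051), and the test of the change in the difference gave 0.87 (adjusted p = 0.177). That test passed without deleted IgM replicate 3, at 0.79 (adjusted p = 0.0284). With IgM, 0 of 11 pro-apoptotic genes passed in limma, while 3 higher and 1 lower had an unadjusted p under 0.05. Bmf (0.73, adjusted p = 0.0979) and Casp9 (0.67, adjusted p = 0.114) came closest.

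Of 11 measured forkhead factor genes, Foxp1 included, 0 passed either, while 2 higher and 1 lower had an unadjusted p under 0.05. Foxo3 (0.67, limma adjusted p = 0.0771) and Foxn3 (-0.48, adjusted p = 0.103) came closest, and Foxo3 passed without deleted IgM replicate 3 at 0.43 (adjusted p = 0.0387). Of 23 genes that FOXO factors induce or that mark quiescent lymphocytes, 4 rose and 0 fell (median 0.31 with and without the outlying array), against 5.66% and 1.1% of all genes. S1pr1, the receptor that guides lymphocytes out of tissue, read 8.24, 7.76 and 7.87 in control cells and 9.27, 8.98 and 9.83 in deleted cells, a difference of 1.41 ± 0.24. The atypical cyclin Ccng2 rose by 0.97 ± 0.16, the stress-response gene Sesn1 by 0.91 ± 0.22 and the recombinase gene Rag1 by 2.37 ± 0.38. Sesn1 did not pass without the block, and 1, 3 and 1 of the 4 passed without control IgM replicate 1, 2 and 3.

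Promoter windows were searched for the core letters TGTTTAC and their reverse complement GTAAACA, which forkhead proteins bind. Each window was the 250 bases before a start site that the RefSeq table of build GRCm38.p6 lists for a gene, and 7653 of the 9293 tested genes had one. A gene was counted where any of its windows held the core, which 206 of these genes did (2.69%). Among genes that passed with and without deleted IgM replicate 3, it was 11 of 401 that rose (2.74%) and 3 of 75 that fell (4.0%). These shares of genes lay close together. Of all 32851 windows of the table, counted singly and so not a like measure, 3.17% held it. Windows were examined for 113 genes, those named by rule and, chosen after their values were seen, Junb and Dusp4. Of these, 90 had a window and 3 held the core, and their windows are shown because the genes belong to the survival, early response and plasma cell groups above and below. The windows are chr2:128125788-128126037 (plus strand) for Bcl2l11, chr10:44458749-44458998 (minus strand) for Prdm1 and chr8:84978749-84978998 (minus strand) for Junb, each printed 5′ to 3′ with the core in capitals.
Bcl2l11: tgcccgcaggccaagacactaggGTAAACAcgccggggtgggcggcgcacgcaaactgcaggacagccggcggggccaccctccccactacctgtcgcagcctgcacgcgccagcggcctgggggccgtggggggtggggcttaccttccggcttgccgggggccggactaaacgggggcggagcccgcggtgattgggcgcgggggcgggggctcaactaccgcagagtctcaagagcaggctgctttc
Prdm1: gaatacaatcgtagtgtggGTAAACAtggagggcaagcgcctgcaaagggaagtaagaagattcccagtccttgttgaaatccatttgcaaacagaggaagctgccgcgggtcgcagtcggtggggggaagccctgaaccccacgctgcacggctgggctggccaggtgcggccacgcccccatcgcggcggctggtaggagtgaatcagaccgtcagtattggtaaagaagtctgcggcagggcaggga
Junb: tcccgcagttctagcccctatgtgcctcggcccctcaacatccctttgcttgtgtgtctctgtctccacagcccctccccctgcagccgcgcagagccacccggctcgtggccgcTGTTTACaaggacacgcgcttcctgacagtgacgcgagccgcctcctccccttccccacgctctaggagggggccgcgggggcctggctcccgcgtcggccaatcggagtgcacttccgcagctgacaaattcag
The core begins 227, 231 and 135 bases before the listed start sites of Bcl2l11, Prdm1 and Junb. That of Prdm1 is an internal start, since its window lies within the gene's span of chr10:44437174-44528558. With IgM, Prdm1 rose, Junb fell and Bcl2l11 did not pass. A match of letters is a description and not a bound site.

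Several members of the proximal receptor cascade rose. Of 23 measured, 7 rose and 0 fell, against 5.66% and 1.1% of all genes. The median was 0.34, or 0.18 without deleted IgM replicate 3. Dapp1, an adaptor that binds phosphoinositides, read 5.97, 6.68 and 7.02 in control cells and 7.34, 7.69 and 9.11 in deleted cells, a difference of 1.49 ± 0.24 (SE; limma adjusted p = 0.0096). Rasgrp3, a Ras activator downstream of diacylglycerol, read 8.88, 9.47 and 9.34 against 10.02, 10.49 and 11.44, a difference of 1.42 ± 0.22. The scaffold gene Bank1 rose by 1.35 ± 0.29, the phospholipase gene Plcg2 by 1.18 ± 0.29 (0.74 without the outlying array) and the phosphoinositide 3-kinase subunit gene Pik3r1 by 0.93 ± 0.19. Vav2 and Prkcd were the other 2. In each of the 5 genes with values the outlying array was the highest of all 6, and these genes moved by less without it, from 0.71 for Pik3r1 to 1.18 for Dapp1. All 7 passed without that array, when Fyn and Malt1 also passed as lower. Without the replicate block 1 of the 7 passed, without control IgM replicate 1, 2 and 3 it was 1, 2 and 1, and with arrays centred on their median or quantile normalized 4 did.

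Of 18 inhibitory receptors and phosphatases, 5 rose and 1 fell, against 5.66% and 1.1% of all genes. The fall was Ctla4. Pecam1 led the rises, followed by Lair1 (1.62 ± 0.24) and Pirb (1.51 ± 0.32), receptors that recruit SHP phosphatases, by the inositol phosphatase gene Inppl1 (1.19 ± 0.23) and by Ptpn6, which encodes SHP-1. Lair1 read 3.87, 3.86 and 2.80 in control cells and 4.86, 5.65 and 4.87 in deleted cells, so its control levels were near the floor. Quantile normalization left 3 of the 5 rises, and the fit without the replicate block left 1. Leaving out control IgM replicate 1, 2 or 3 left 2, 4 and 2.

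Several genes of immature B cells and of antigen receptor recombination rose. Of 16 measured, 7 rose and 1 fell, against 5.66% and 1.1% of all genes. The median was 0.87, or 0.85 without deleted IgM replicate 3. The template-independent polymerase gene Dntt read 2.43, 2.38 and 2.30 in control cells and 5.14, 5.68 and 4.50 in deleted cells, a difference of 2.74 ± 0.23 (SE; limma adjusted p = 0.000527). Rag1 read 3.70, 4.00 and 4.28 against 5.86, 7.19 and 6.04. The growth factor receptor gene Kit read 5.59, 6.08 and 5.66 against 8.37, 7.59 and 8.79, a difference of 2.48 ± 0.47. Cd93, the AA4 antigen of transitional B cells, read 8.40, 7.94 and 7.53 against 9.90, 9.54 and 8.98, a difference of 1.52 ± 0.16. In all 4 the lowest deleted array lay above the highest control array. Without the outlying array Dntt, Rag1, Kit and Cd93 differed by 2.92, 2.46, 1.98 and 1.56. Cd34, Sox4 and Lef1 were the other rises, and the heat-stable antigen gene Cd24a, which immature B cells carry at a high level, fell by 0.63 ± 0.16 (adjusted p = 0.049). All 7 rises passed without the replicate block, whereas Cd24a did not. Without control IgM replicate 1, 3 of the 7 passed, and without replicate 2 or 3 of that group 6 did. Kit and Cd34 also stand on a list of progenitor and mast cell markers.

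Several homing receptors and adhesion proteins rose. Of 19 homing receptor genes 4 rose and 1 fell, and of 16 adhesion genes 7 rose and 0 fell, against 5.66% and 1.1% of all genes. Without deleted IgM replicate 3 the homing counts were 7 and 2 and the adhesion counts 7 and 1. Itga4 and Itgb7 encode the alpha4 and beta7 chains of an integrin that directs lymphocytes to the gut. Itga4 read 8.25, 8.41 and 8.51 in control cells and 9.86, 9.86 and 10.57 in deleted cells, a difference of 1.71 ± 0.15 (SE; limma adjusted p = 0.00067). Itgb7 read 6.05, 5.59 and 4.98 against 7.38, 7.16 and 7.06, a difference of 1.66 ± 0.19, with an adjusted p of 0.0529 without the replicate block. Both passed with any 1 array left out, and Itga4 differed by 1.57 without the outlying array. The chemokine receptor gene Ccr2 rose by 2.40 ± 0.32. Ccr6, a receptor for Ccl20 on mature B cells, read 11.48, 11.50 and 11.58 against 10.43, 10.72 and 9.33, a difference of -1.36 ± 0.29 and of -0.98 without the outlying array. Vcam1, the ligand of alpha4 integrins, rose by 2.74 ± 0.39 from near the floor, and the Adgre5 gene of CD97 by 1.33 ± 0.26. Cd47 and Cd200 were the remaining adhesion genes that rose. Of the 7 adhesion genes 5 passed without the block, and 3, 4 and 4 passed without control IgM replicate 1, 2 and 3. Ccr6 did not pass without any of those 3 arrays.

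A few genes of plasma cells and 1 of antigen presentation rose. Prdm1, at the head of the plasma cell programme, read 7.67, 7.39 and 7.76 in control cells and 9.23, 8.69 and 9.57 in deleted cells, a difference of 1.56 ± 0.27 (SE; limma adjusted p = 0.0124). Edem1, which helps degrade misfolded glycoproteins, rose by 1.51 ± 0.26 and the syndecan gene Sdc1 by 1.05 ± 0.15. Without the outlying array Prdm1, Edem1 and Sdc1 differed by 1.31, 1.12 and 0.90. These were 3 of 11 plasma cell genes, against 5.66% of all genes, with 0 falls and a list median of -0.18, or 0.00 without deleted IgM replicate 3. Sdc1 did not pass without the block, whereas Prdm1 and Edem1 did not pass without control IgM replicate 1, 2 or 3. Ciita, the master regulator of MHC class II genes, read 6.60, 6.89 and 6.49 against 8.19, 8.76 and 8.82, a difference of 1.93 ± 0.29, or 1.63 without the outlying array. It was the only 1 of 16 MHC class II presentation genes to pass with all arrays, a share near the 5.66% of all genes that rose. Without the outlying array 4 passed as higher, against 9.73% of all genes.

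Smaller lists gave the following values, to be set beside rises in 5.66% and falls in 1.1% of all genes. Slamf1, a signalling receptor of lymphocytes, rose by 1.20 ± 0.14 and the ICOS ligand gene Icosl by 1.10 ± 0.24, the 2 rises among 17 activation and costimulation genes. Spn, which encodes CD43, a marker of B-1 cells, rose by 1.76 ± 0.22. It read 7.03, 7.55 and 7.24 in control cells and 8.69, 8.97 and 9.42 in deleted cells, and passed with any 1 array left out. With Sdc1 up and Ctla4 down it made 2 rises and 1 fall among 17 marginal zone and B-1 genes. Cd55, which protects cells from complement, rose by 1.20 ± 0.23, and with Icosl it made 2 rises among 8 follicular B cell genes. The coactivator gene Pou2af1 (0.74 ± 0.16) was the only 1 of 20 B cell identity genes to rise with all arrays, a share near the 5.66% of all genes, and 0 fell. Without deleted IgM replicate 3, 4 of the 20 rose, against 9.73% of all genes. Of 26 cytokine receptor genes 4 rose. These were Csf1r, Tnfrsf13b (0.78 ± 0.16), which encodes the receptor TACI, Csf3r (0.69 ± 0.17) and Ifngr1 (0.56 ± 0.14). The last 2 missed the threshold under median centring, at adjusted p of 0.055 and 0.0729. The kinase homologue gene Irak3 (1.93 ± 0.27), Tlr2 (1.37 ± 0.31, or 0.91 without the outlying array) and Cd180 (0.73 ± 0.16) rose among 15 genes of Toll-like receptor signalling, and Rgs18 (1.69 ± 0.23) among 9 regulators of G protein signalling. Slamf1, Spn, Irak3 and Rgs18 passed in each of the 12 fits that leave out 1 array, Tnfrsf13b in 10 and Cd55 in 9. Icosl and Pou2af1 passed in 6 of them, Tlr2 and Cd180 in 5, Csf3r in 3 and Ifngr1 in 1. Of these genes only Spn, Irak3, Rgs18 and Cd55 also passed without the replicate block.

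**Figure D3:**
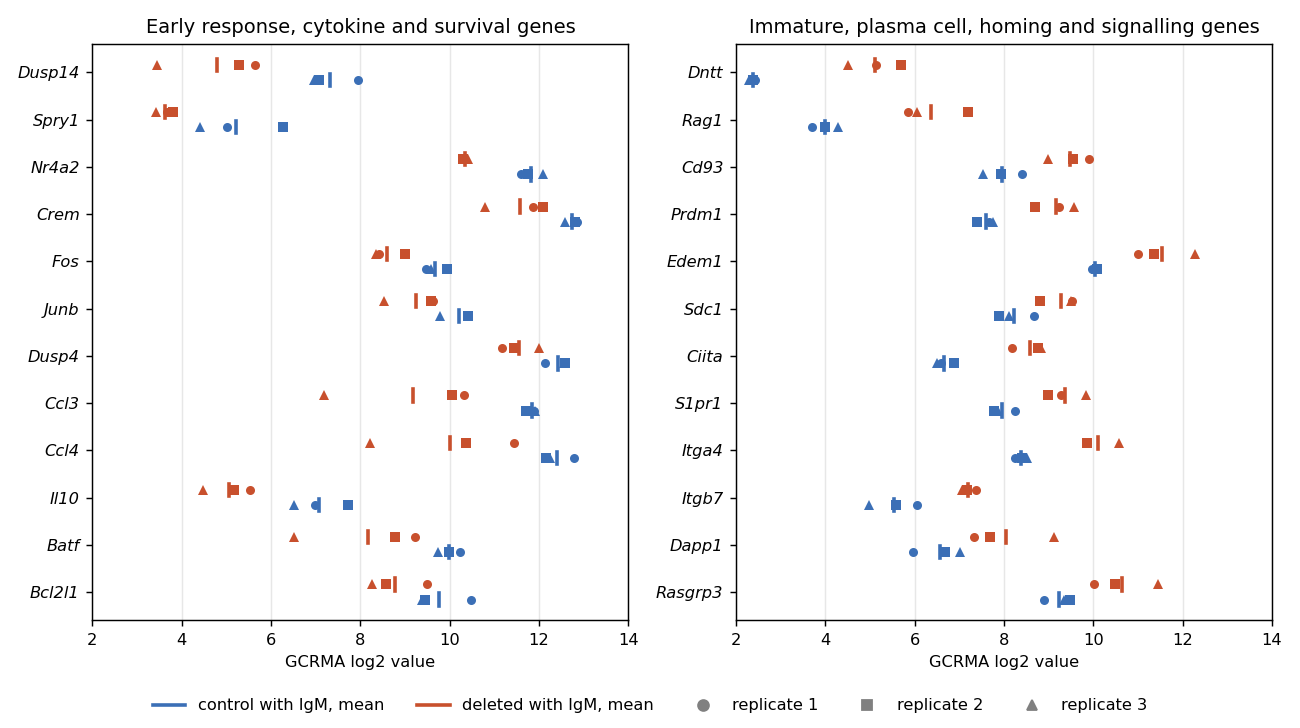
GCRMA log2 values (horizontal axis) of early response, cytokine and survival genes (left) and of immature B cell, plasma cell, homing and signalling genes (right) with IgM. Points are arrays, with the replicate number as the shape, and vertical bars are means of 3 arrays. Deleted arrays lie to the left in the left panel and to the right in the right panel, and the groups overlap in Bcl2l1.

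Several cell cycle genes rose. Of 23 genes of G2/M and mitosis, 10 rose and 0 fell, with a median of 1.15, or 1.03 without deleted IgM replicate 3. Over all genes 5.66% rose and 1.1% fell. Of 24 genes of G1/S and DNA replication, only Rrm2 rose with all arrays (1.20 ± 0.23), a share near that of all genes. Without deleted IgM replicate 3, 4 rose and 1 fell, against 9.73% and 3.43% of all genes. The difference between these lists was not tested. The proliferation marker gene Mki67 read 2.61, 6.50 and 7.12 in control cells and 4.13, 7.88 and 9.64 in deleted cells, a difference of 1.81 ± 0.33 (SE; limma adjusted p = 0.0142). Replicate 1 was far lower than the others in both genotypes, and the groups overlapped. Nusap1, of the mitotic spindle, read 6.54, 7.53 and 7.06 against 8.91, 8.75 and 8.51, a difference of 1.68 ± 0.29, with no overlap. The checkpoint kinase gene Bub1 (adjusted p = 0.0471) and the cyclin genes Ccnb2 (1.54 ± 0.37) and Ccna2 (1.53 ± 0.33) rose too, although Bub1 did not pass without the outlying array (adjusted p = 0.0855). Of the 10 rises, 8 passed without the outlying array, 8 with arrays centred on their median, 4 after quantile normalization and 1, Nusap1, without the replicate block. Leaving out control IgM replicate 1 ended all 10 calls, and leaving out replicate 2 or 3 of that group left 2 and 1.

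Metabolic lists held no calls. In limma 0 of 26 ribosome biogenesis genes, 0 of 22 genes of cholesterol and fatty acid synthesis, 0 of 22 amino acid transport and ATF4 target genes and 0 of 14 glycolysis genes passed. Their medians lay between -0.18 and 0.06. An unadjusted p under 0.05 was reached by 5, 4, 3 and 0 genes of these lists as lower, and by 0, 1, 0 and 2 as higher. The values closest to the threshold were those of Rrp9 (-0.93, limma adjusted p = 0.0626) and Fdft1 (-0.67, adjusted p = 0.0608). Without deleted IgM replicate 3, 1 ribosome biogenesis gene and 4 cholesterol and fatty acid genes passed as lower, Fdft1 among them at -0.46 (adjusted p = 0.0196). Of 33 respiratory chain genes 0 passed, and 2 had an unadjusted p under 0.05, both lower. Their median was -0.77 with all arrays and -0.03 without the outlying array, and by replicate it was -0.15, -0.11 and -2.17. The shift was that of replicate 3.

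**Figure D4:**
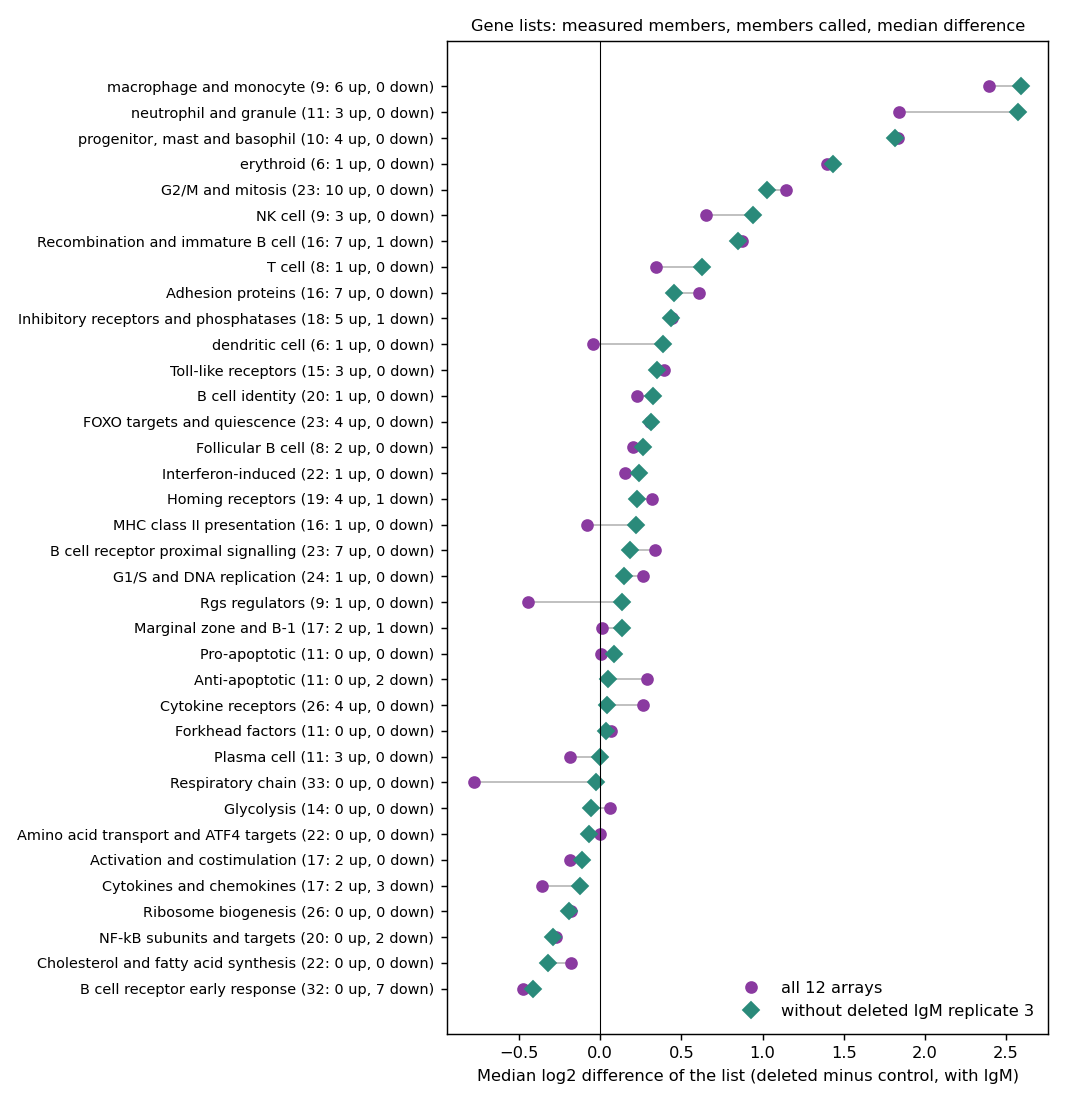
Median log2 difference between deleted and control cells with IgM (horizontal axis) of each gene list with at least 5 measured members, with all 12 arrays (circles) and without deleted IgM replicate 3 (diamonds). Labels give the measured members and how many passed in each direction. The respiratory chain list lies lowest with all arrays and moves from -0.77 to -0.03 without that array, when the early response list lies lowest, at -0.41 (-0.48 with all arrays).

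Some markers of other cell types rose in deleted cells, to be set beside rises in 5.66% of all genes. Of 9 measured macrophage and monocyte markers 6 rose, with a median of 2.40. Csf1r, the receptor of a macrophage growth factor, read 3.10, 5.10 and 3.61 in control cells and 7.55, 8.14 and 8.08 in deleted cells. F13a1, a coagulation factor subunit of monocytes, read 2.60, 3.96 and 3.09 against 7.17, 7.91 and 6.44. The lysozyme gene Lyz2 read 7.39, 8.26 and 5.93 against 10.69, 10.91 and 7.15, a difference of 2.39 ± 0.36, so its groups overlapped. Over the 18 markers on the array the summed linear level was 583 to 1872 on control arrays and 1367 to 9866 on deleted arrays. On all 6 IgM arrays, 9 of these 18 markers (C1qa, C1qb, C1qc, Mrc1, Cd163, Mertk, Fcgr1, Itgam and Msr1) lay between 2.23 and 2.66. At those levels the genotypes have no order. Adgre1, which encodes F4/80, lay between 3.69 and 4.19 on control arrays and between 3.70 and 4.70 on deleted arrays.

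Of 11 measured neutrophil and granule genes 3 rose, Mpo, Prtn3 (2.70 ± 0.64) and Csf3r, and 5 did so without deleted IgM replicate 3. Mpo, the myeloperoxidase gene, read 7.98, 9.48 and 7.17 in control cells and 12.36, 11.69 and 10.68 in deleted cells. The median of the list was 4.38 in replicate 1, 1.70 in replicate 2 and 0.19 in replicate 3, so the replicates differed widely. Summed over 14 genes, the linear level was 316 to 1692 on control arrays and 1847 to 14918 on deleted arrays, while Mmp8, Mmp9 and Cxcr2 lay at 2.23 to 2.53 throughout. Of 10 progenitor, mast cell and basophil genes 4 rose, Cd34, Kit, Ms4a2 (2.55 ± 0.51) and Gata2 (1.81 ± 0.45). Gata2 did not pass without the outlying array (limma adjusted p = 0.0783), and leaving out control IgM replicate 1 ended all 4 calls. Of 9 NK cell genes 3 rose, Eomes (1.23 ± 0.30, with an adjusted p of 0.0573 without the outlying array), Klrk1 (1.15 ± 0.21) and Klrd1 (0.99 ± 0.18), and none of them passed without the replicate block or without control IgM replicate 1 or 3. Their summed level over 11 genes was 346 to 1338 on control arrays and 447 to 2226 on deleted arrays. Single markers of T cells (Cd28, 1.43 ± 0.32), dendritic cells (Siglech, 1.31 ± 0.31) and erythroid cells (Hemgn, 2.95 ± 0.57) rose as well, whereas Cd4 and Cd8b1 lay at 2.23 to 2.24 on every IgM array. The medians of replicate 3 were -0.16 for NK cell, -0.03 for T cell and -0.12 for dendritic cell markers. The markers that rose moved with the genotype, and their part in the rises of Csf1r, Mpo, Kit, Cd34, Vcam1, Ccr2, Pecam1, Lair1, Pirb and Tlr2, which myeloid and progenitor cells also express, was not tested.

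The same genotypes were compared without IgM to ask whether the stimulus altered the difference. In unstimulated cells 640 genes passed (6.89%), 419 higher (4.51%) and 221 lower (2.38%). Of the 628 genes that passed with IgM, 271 also passed without it in the same direction. The interaction, which is the difference with IgM minus that without, passed in 16 genes (0.172%), of which 14 were below 0 (0.151%) and 2 above (0.0215%). Without deleted IgM replicate 3 it passed in 187 (2.01%), of which 107 were above 0 (1.15%) and 80 below (0.861%).

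Spry1, an inhibitor of receptor tyrosine kinase and Ras signalling, at chr3:37639947-37644599, changed direction. With IgM it lay between 4.40 and 6.26 in control cells and read 3.67, 3.81 and 3.42 in deleted cells, a difference of -1.59 ± 0.28 (SE; limma adjusted p = 0.0133). Unstimulated, it read 2.62, 3.42 and 2.86 against 6.72, 6.91 and 6.15, a difference of 3.63 (adjusted p = 0.000135). The interaction was -5.22 (adjusted p = 0.000975). Without the replicate block the fall with IgM had an adjusted p of 0.0966, and without control IgM replicate 1 of 0.0581. Pmp22 fell with IgM and lay at 2.23 to 3.02 on all 6 unstimulated arrays, and its interaction was -2.21 (adjusted p = 0.0362). Mturn, which acts in the differentiation of neural progenitors, rose with IgM by 1.69 ± 0.16 and differed by 0.14 without it (interaction 1.54, adjusted p = 0.0458). Slamf1 rose in both conditions, by 1.20 with IgM and 2.99 without it (interaction -1.79, adjusted p = 0.0134). In Qpct, which makes pyroglutamate, the rise was 2.55 with IgM and 6.26 without it, and in the choline kinase gene Chka it was 1.80 and 4.14. Their direction was thus the same in both conditions. Hsd17b13 read 2.42, 2.38 and 2.23 in control cells and 2.96, 2.45 and 2.39 in deleted cells with IgM, whereas unstimulated deleted cells read 8.13, 7.89 and 8.60. For Prdm1 the differences were 1.56 with IgM and -0.47 without it, and the interaction was 2.03 (adjusted p = 0.12), or 1.78 (adjusted p = 0.0387) without deleted IgM replicate 3. Bcl2l1 differed by -0.99 and -1.16, and its interaction had an adjusted p of 0.732.

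**Figure D5:**
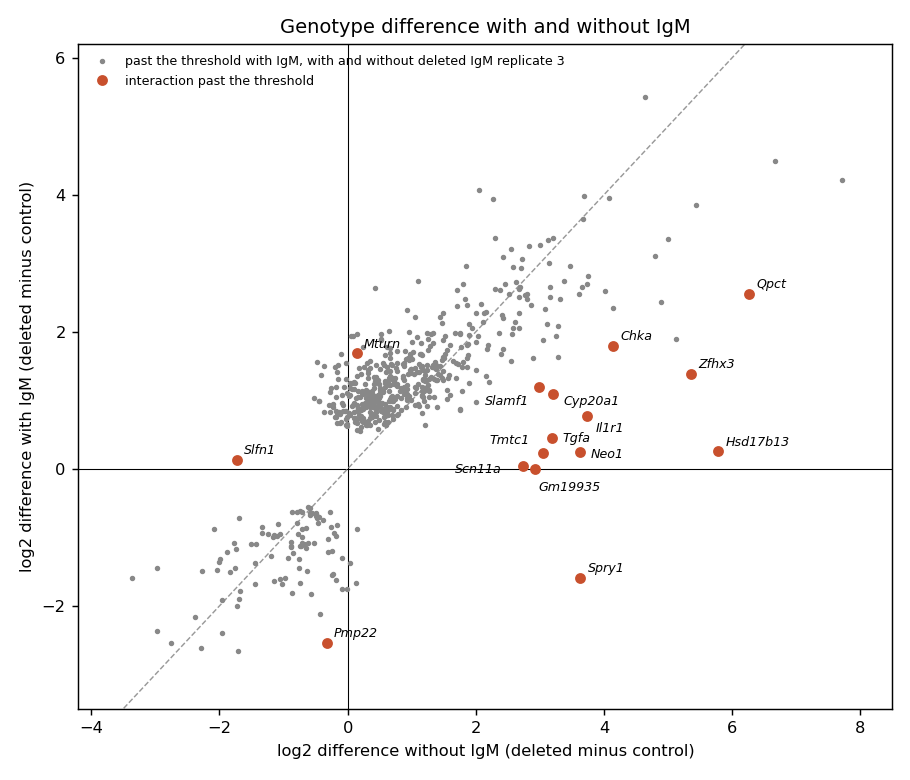
Log2 difference between deleted and control cells without IgM (horizontal axis) and with IgM (vertical axis). Grey points are the 589 genes that passed with IgM both with and without deleted IgM replicate 3, red points the 16 genes whose interaction passed, and the dashed line marks equal differences. Spry1 lies at 3.63 and -1.59, and Hsd17b13 at 5.79 and 0.25.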

How the data were processed

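RNA of 12 B cell samples was hybridised to 1-colour Affymetrix mouse expression arrays, 3 per group. The authors deposited a table of GCRMA values, the method being named in the submitters' processing notes without a version. That the deposited values are log2 was read from the values themselves, and other processing steps are not given in the sources used here. Samples were grouped by title, with the replicate number as the pairing, and each sample is 1 array.

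The table held 45101 probe sets, of which 64 were controls, 34945 had 1 gene, 932 several and 9160 none in GEO's platform annotation. Symbols were updated and coordinates taken from the RefSeq table of GRCm38.p6. A gene was tested where a single-gene probe set exceeded log2 4 on at least 3 arrays, and its brightest such probe set was used, which gave 9293 of 18193 genes. Levels of different genes were not compared. Limma 3.58.1 in R 4.3.3 fitted all 12 arrays with 1 mean per group and the replicate number as a block, followed by eBayes, two-sided tests and Benjamini-Hochberg adjustment. With group means removed, arrays that share a number correlated at 0.1003 to 0.85 over all pairs of groups, and at 0.80, 0.17 and 0.68 between the IgM groups. The pairing was set by the labels' numbers, and these correlations only describe it. No correlations of arrays with different numbers are given beside them, so they cannot test the pairing. Simulated data had independent normal noise with the fitted spread of each gene, equal on all arrays. Run on 9293 genes, the fit found 48% of 100 changes of log2 1 and 90% of 100 of log2 2, with 5 false calls. Deleted IgM replicate 3, with an array weight of 0.0223, departs from such noise, so these rates need not hold for the real arrays.

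The genes, lists and tests were chosen with earlier results of these data known. Named genes are the 12 largest rises and the 12 largest falls that passed with and without deleted IgM replicate 3 and had 1 sign in all 3 pairs, predicted genes left out, with Foxp1, Bcl2l1, Bcl2, Mcl1 and Bcl2l11, up to 5 called members of each list (in a list with none, the 2 of smallest p) and the 5 largest interactions of each sign. A further 45 genes were added after their values were seen, among them Junb, Dusp4, Egr1, Egr2, Egr3, Myc, Cd24a, Chka and Mturn. Some genes of this set are not in the text, and list members such as Vav2, Sox4 and Cd47 are named outside it. Alternatives to the block, filter, scaling, probe set choice, eBayes settings, array weights and each array or replicate left out are in the closing section. The number of arrays limits the precision.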

Additional observations from a re-analysis of the deposited data

Results flagged for a closer look

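The genotype difference changed with IgM in 16 genes, by a limma test of the interaction (the difference with IgM minus that without, in log2 units). In 14 it was below 0. The values were -5.53 for Hsd17b13, -5.22 for Spry1, -3.97 for Zfhx3, -3.71 for Qpct, -3.38 for Neo1, -2.95 for Il1r1, -2.92 for Gm19935, -2.83 for Tmtc1, -2.74 for Tgfa, -2.70 for Scn11a, -2.34 for Chka, -2.21 for Pmp22, -2.10 for Cyp20a1 and -1.79 for Slamf1. Those above 0 were Slfn1 (1.87) and Mturn (1.54). Adjusted p ranged from 0.000127 for Hsd17b13 to 0.0458 for Mturn. Slfn1, which acts on lymphocyte growth, differed by 0.14 with IgM and by -1.73 without it. Of these 16 genes 7 also passed with IgM.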

How the results depend on the processing

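Several choices changed the counts by over 1.5 times. Genes higher, lower and with a changed difference numbered 526, 102 and 16 with all arrays and the replicate block, and 148, 12 and 10 without the block (194, 24 and 16 without the block and without the outlying array). With the 6 IgM arrays alone, 0 were higher and 0 lower in limma, while 879 and 305 had an unadjusted p under 0.05, and without the outlying array the same fit gave 182 and 43. Without a filter on dim probe sets 184 were higher and 36 lower, and with a filter at log2 above 6 the interaction passed in 10. Quantile normalization gave 343 higher. Every probe set, or the median of a gene's probe sets, gave 26 and 25 interactions. Array weights, which set the outlying array to 0.0223, gave 1368, 630 and 423. An adjusted p under 0.01 left 154, 14 and 6. Leaving out both IgM arrays of replicate 3 gave 226 lower and 123 interactions. Leaving out single arrays or whole replicates gave 4 to 904 higher, 0 to 319 lower and 0 to 187 interactions; the lowest came without replicate 1, where 918 and 393 genes had an unadjusted p under 0.05 as higher and lower and 338 for the interaction. Foxp1 did not pass under any of the 29 alternatives. Over the other 154 genes of the followed set no called direction turned. The alternatives without the block and the outlying array, without both IgM arrays of replicate 3, and with the 6 IgM arrays less the outlying array were chosen after seeing the data. The cause of these changes was not tested.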

Other observations

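Several genes outside the lists, chosen after their values were seen, differed with IgM in limma. Lcp2, the adaptor SLP-76, read 4.35, 5.79 and 4.37 in control cells and 7.66, 8.37 and 8.49 in deleted cells, a difference of 3.33 ± 0.33 (adjusted p = 0.001). The kinase gene Map2k6 read 3.70, 3.66 and 3.66 against 7.24, 6.51 and 6.59, a difference of 3.11 ± 0.23. Klhl14 read 4.84, 3.98 and 4.49 against 6.74, 6.50 and 8.02, a difference of 2.65 ± 0.29, and differed by 0.42 without IgM. The glycogen phosphorylase gene Pygl (3.27) and the receptor gene Clec7a (2.95) rose as well. Falls included Socs3 (-1.10) and Cish (-0.98), which encode inhibitors of cytokine signalling, the transcription factor gene Nfil3 (-1.02), the microRNA host gene Mir155hg (-1.48) and Ifng (-1.62, or -1.09 without deleted IgM replicate 3). Of the 12 fits that leave out 1 array, Socs3 passed in 10, Cish in 9, Nfil3 and Mir155hg in 8 and Ifng in 5. None of these falls passed without the replicate block. The transcription factor gene Ets1 differed by 1.20 with IgM and -0.06 without it. Ets1 passed in 7 of the 12 fits that leave out 1 array (limma adjusted p of up to 0.144) and did not pass without the replicate block. Neither Klhl14 nor Ets1 was among the 16 genes whose interaction passed with all arrays.

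H2-Ea, a class II chain gene that some mouse strains lack, read 7.13, 6.96 and 7.23 in control cells and 12.56, 10.69 and 6.72 in deleted cells with IgM. Without IgM it read 7.20, 6.72 and 6.72 against 11.91, 9.89 and 6.58, so the same replicate numbers stood out in both conditions. Eif4e3, a neighbour of Foxp1 at chr6:99621879-99692873, read 6.60, 6.61 and 5.98 in control cells, below every deleted array, a difference of 0.90 ± 0.16 (limma adjusted p = 0.0131). The Eif4e3 call ended when control IgM replicate 1, 2 or 3 was left out, with a limma adjusted p of up to 0.08. Of 10 tested genes within 5 Mb of Foxp1, 2 passed, against 6.76% of all tested genes. Igha, the IgA constant region, lay between 9.87 and 13.20 in control cells and read 12.81, 13.78 and 14.64 in deleted cells, a difference of 2.06 ± 0.38 with an adjusted p of 0.366 without the replicate block.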
